A study of Mus musculus with 2 samples.

Results

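Neutrophils with very high Cxcl3, the transcript of a chemokine that draws further neutrophils to inflamed tissue, were examined in 2 single-cell RNA libraries of immune cells from mouse tumours grafted from an oral carcinoma line. A cell was kept with at least 200 detected genes and at most 10% mitochondrial UMIs (unique molecular identifiers, each counting 1 captured transcript). It was called a neutrophil when S100a8, S100a9, G0s2, Csf3r and Retnlg together made up at least 2% of its UMIs. A Cxcl3-high neutrophil also held Cxcl3 at 1% or more of its UMIs. It had fewer than 4 UMIs of Ero1l, Bnip3, Hk2 and Egln3 together, fewer than 2 of Ly6g and Mmp8, fewer than 3 of Saa3, fewer than 5 of Ifit1, Ifit3 and Rsad2, fewer than 3 of C1qa, C1qb and C1qc, and no UMI of Siglecf, Cd3e or Cd79a. The cells were selected on Cxcl3, the neutrophil genes and the limits on these other transcripts. The rule chose 61 of 7734 cells, 30 of 3364 in the vehicle library and 31 of 4370 in the Momordicine-I library, out of 1656 and 2347 neutrophils. Levels of these transcripts are therefore given as a description.

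The tumours grew from MOC2, a mouse oral carcinoma cell line, injected with Matrigel under the flank skin of female C57BL/6 mice aged 6 to 7 weeks. With palpable tumours, 10 mice per arm received daily intraperitoneal injections of Momordicine-I, a bitter melon triterpenoid, at 30 mg/kg, or the DMSO and Captisol vehicle alone. Tumours of 3 mice per group were pooled, stained with a CD45 antibody and propidium iodide, sorted, and profiled with the 10x Genomics 3' v3.1 kit. Every animal carried the same tumour line, a subcutaneous graft and not a tumour of the mouth, and each group is 1 library, so there was no replicate, no test was run, and values compare these 2 libraries. Intervals in parentheses are exact 95% intervals that cover counting error only. They treat UMIs of the same cell as independent and leave out the spread between cells and between mice.

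Neutrophils are short-lived phagocytes that enter tissue along gradients of CXCR2 ligands, among which Cxcl1, Cxcl2 and Cxcl3 are encoded side by side. Neutrophils make such ligands themselves once pattern recognition receptors or interleukin-1 activate the transcription factor NF-kB, which recruits further neutrophils. In tumours, neutrophils making these chemokines and interleukin-1 are usually described as inflammatory or activated.

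The gated cells carried neutrophil RNA, with few UMIs of other lineages. All 18 genes of a neutrophil list that the rule did not use (Cxcr2, Trem1, Il1r2, Hdc and others) had UMIs in each library, summing to 42450.5 CPM (UMIs of a gene per 1000000 UMIs of the summed cells) in vehicle and 48629 CPM in Momordicine-I cells. Srgn alone gave 1555 of the 4520 vehicle and 2086 of the 6003 Momordicine-I UMIs in these sums. Of 14 T and NK cell markers, 5 and 11 were at 0, and the rest summed to 13 and 4 UMIs, with Cd3e at 0 by the rule and Cd3g and Cd8a at 0 in both libraries. Of 10 B and plasma cell markers, 6 and 8 were at 0, and the rest summed to 25 and 8 UMIs, with Ms4a1 at 0. Of 17 monocyte and macrophage markers, 7 and 8 were at 0. The rest summed to 61 UMIs in vehicle, up to 24 of them in 1 cell, and to 34 in Momordicine-I. Ly6c2, a monocyte surface marker, gave 23 UMIs in vehicle cells, 82.6% of them from 1 cell, while Mertk and Cx3cr1 were at 0. The 13 dendritic cell markers summed to 32 and 24 UMIs, with Flt3 at 0 in vehicle and Zbtb46, Xcr1 and Clec9a at 0 in both. The 10 epithelial markers summed to 5 UMIs in each library, with Krt5 and Epcam at 0. Basophil and mast cell markers summed to 0 and 6 UMIs, and fibroblast and endothelial markers to 7 and 6. Set against neutrophils with little Cxcl3, monocyte and macrophage markers stood at 573 against 363 CPM in vehicle and 275 against 387 CPM in Momordicine-I. T and NK cell markers stood at 122 against 47 CPM in vehicle and 32.4 against 30.8 CPM in Momordicine-I, and B and plasma cell markers at 235 against 171 CPM in vehicle and 64.8 against 42.3 CPM in Momordicine-I. In vehicle all 3 lists were thus higher in the gated cells, the monocyte and macrophage list with up to 24 of its 61 UMIs in 1 cell. In Momordicine-I the T and NK cell and the B and plasma cell lists were also higher, and the monocyte and macrophage list was lower. The part of these transcripts in the results was not tested.

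Of the 5 genes proposed as marks of this state, Cxcl3 was set by the rule, and the others were read against Cxcl3-low neutrophils, which met every other criterion but held Cxcl3 below 0.25% (185 vehicle and 356 Momordicine-I cells). Fpr1, a receptor for formylated bacterial peptides, was at 282 CPM in vehicle and 429 CPM in Momordicine-I Cxcl3-high cells, against 107 and 115 CPM in Cxcl3-low cells. Its log2 ratio in Momordicine-I, 1.90, was 0.81 without the exclusions and 0.68 when the rule was applied to cells thinned to 2000 UMIs, while in vehicle it was 1.40, 1.26 and 1.68. Nlrp3, the sensor of an inflammasome, was at 1699.9 and 1256 CPM, against 875 and 743. Both genes were higher than in Cxcl3-low cells in both libraries. Stfa2l1, of the stefin A group of protease inhibitors, was higher in the Cxcl3-high cells of the Momordicine-I library, at 1855 against 999.7 CPM, while the vehicle ratio was 1.13 (0.939 to 1.35). F3, tissue factor, which starts coagulation, gave 3 UMIs in 2 vehicle cells and 8 UMIs in 7 Momordicine-I cells. Its ratio to Cxcl3-low cells was 0.792 (0.153 to 2.6) in vehicle and 2.22 (0.893 to 4.82) in Momordicine-I, too few UMIs to give a direction in vehicle. Without the exclusions the vehicle log2 ratio was 1.59, and in thinned cells 2.05. Those F3 levels, 28.2 and 64.8 CPM, lay below the 253 and 169 CPM of the neutrophils with Cxcl3 of 1% or more that the exclusions had removed.

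The promoters of the CXCR2 ligands are shown because Cxcl2 was higher the more Cxcl3 a cell held, while Cxcl1 was barely detected. Cxcl3 lies on chromosome 5 at chr5:90786103-90789600 (plus strand, protein-coding), and Cxcl1 and Cxcl2 start 105138 and 117768 bases further along the same strand. Sequences are from RefSeq, build GRCm38.p6, 250 bases before to 50 after the start site, plus strand, at chr5:90785851-90786150 (Cxcl3), chr5:90903649-90903948 (Cxcl2) and chr5:90890995-90891294 (Cxcl1). Capitals mark letters that match the NF-kB decamer consensus.
Cxcl3: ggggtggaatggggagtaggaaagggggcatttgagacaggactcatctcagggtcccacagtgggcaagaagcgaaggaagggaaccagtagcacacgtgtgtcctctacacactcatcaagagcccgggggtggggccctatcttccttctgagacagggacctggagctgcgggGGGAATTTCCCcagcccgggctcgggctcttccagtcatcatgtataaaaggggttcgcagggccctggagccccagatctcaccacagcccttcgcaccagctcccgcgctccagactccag
Cxcl2: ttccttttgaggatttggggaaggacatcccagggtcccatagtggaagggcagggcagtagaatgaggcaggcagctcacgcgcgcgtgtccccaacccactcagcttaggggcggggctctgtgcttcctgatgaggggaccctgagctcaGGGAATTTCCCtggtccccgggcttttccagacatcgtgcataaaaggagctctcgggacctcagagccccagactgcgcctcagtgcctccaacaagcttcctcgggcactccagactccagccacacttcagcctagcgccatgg
Cxcl1: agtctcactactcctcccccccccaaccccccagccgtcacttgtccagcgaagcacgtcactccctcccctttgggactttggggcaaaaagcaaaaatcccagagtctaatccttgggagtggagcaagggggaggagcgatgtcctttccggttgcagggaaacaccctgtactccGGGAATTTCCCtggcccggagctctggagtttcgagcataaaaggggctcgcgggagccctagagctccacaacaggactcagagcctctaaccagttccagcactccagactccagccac
Each promoter held the same run of capitals, which contains 2 overlapping consensus matches, 1 on each strand. The first match began at position -73 in Cxcl3, -97 in Cxcl2 and -71 in Cxcl1, counted from the start site. The consensus occurred on either strand in 1480 of 32851 mouse promoters of the same length, or 4.51%. Other motifs were searched on both strands: AP-1 (TGANTCA, in 7.81% of promoters), C/EBP (TTGCNNAA, 10.8%), a TATA box (TATAAA, 13.6%) and the hypoxia element core (ACGTG, 19.6%). The Cxcl3 promoter also held TATAAA at -30 and ACGTG on both strands (at -155 and -154, overlapping), and the Cxcl1 promoter held ACGTG at -196. The Il1a promoter held TGANTCA at -12 and TATAAA at -32. These matches describe letters in a window and were not tested for binding.

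Cxcl2, a CXCR2 ligand like Cxcl3, was the transcript with the most UMIs in the gated cells of both libraries. Single vehicle cells held Cxcl2 at 0.394% to 13.5% of their UMIs, median 3.92%, and Momordicine-I cells at 0.364% to 12.5%, median 4.31%. Medians in Cxcl3-low cells were 1.46% and 1.48%. The ranges overlapped, since some Cxcl3-low cells reached 13% and 12.7%. Over summed cells Cxcl2 was at 55392 and 55887 CPM, with ratios to Cxcl3-low cells of 2.13 (2.06 to 2.19) and 2.61 (2.54 to 2.68). Cxcl3 itself, which the rule used, ranged over cells from 1.04% to 5.02% in vehicle (median 1.76%) and from 1.02% to 3.54% in Momordicine-I (median 1.59%). Cxcl1 was scarce, and its log2 ratio to Cxcl3-low cells in Momordicine-I had the other sign without the exclusions (-1.83 against 1.54): 13 UMIs in 3 vehicle cells, 76.9% of them in 1 cell, and 2 UMIs in 2 Momordicine-I cells. Of the 6 genes of the CXCR2 ligand list, 3 were measured against Cxcl3-low cells in both libraries, and 2 of them (Cxcl2 and Cxcl3, the gene of the rule) were at least 1.5-fold higher, beside 3.92% of all measured genes.

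Lymphocytes, which should lack neutrophil transcripts, gave the background of detection (Cd79a or Cd3e at 2 or more UMIs and neutrophil genes under 0.5%; 507 and 329 cells, median 7294 and 6372 UMIs). After thinning each cell to 2000 UMIs, which left out 9 vehicle and 4 Momordicine-I Cxcl3-high cells, Cxcl3 was found in 14.9% and 13.6% of lymphocytes and in 41.2% and 29.4% of Cxcl3-low cells. Without thinning it was found in 46.7% and 35.9% of them, and in 51.9% and 44.4% of Cxcl3-low cells. Fpr1 was found after thinning in 8 of 21 vehicle and 11 of 27 Momordicine-I Cxcl3-high cells, and in 0 of 502 vehicle lymphocytes, which by the floor of 3 counts allows a share of up to 0.598%, and 0.31% of Momordicine-I lymphocytes. Unthinned, those shares were 36.7% and 61.3% against 0.789% and 1.82%. Median depth was 3836.5 and 4164 UMIs in Cxcl3-high and 4049 and 3649.5 in Cxcl3-low cells.

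Compared with Cxcl3-low neutrophils, 140 of 3567 measured genes (at least 20 UMIs over the 2 sums, in each library) were at least 1.5-fold higher in both libraries, or 3.92%, and 591 were at least 1.5-fold lower in both, or 16.6%. The cells were split by Cxcl3 in the same libraries, so these counts describe the split. Many low calls rested on few UMIs: the interval lay above 1 for 250 and below 1 for 355 of 3583 genes in vehicle, and for 274 and 585 of 5094 in Momordicine-I. The median gene was at a log2 ratio of -0.19 in vehicle and -0.46 in Momordicine-I. Cxcl2, Cxcl3 and Fth1 together made up 12% and 11.9% of UMIs in Cxcl3-high cells and 4.86% and 4.49% in Cxcl3-low cells. Leaving out each gene's highest cell in each sum changed the counts to 47 higher and 1092 lower. The gated sums hold fewer cells than the Cxcl3-low sums, so this step tends to lower them more. A shift toward lower calls was thus built into that step. The cause of the larger number of lower calls in the main comparison was not tested.

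**Figure D1:**
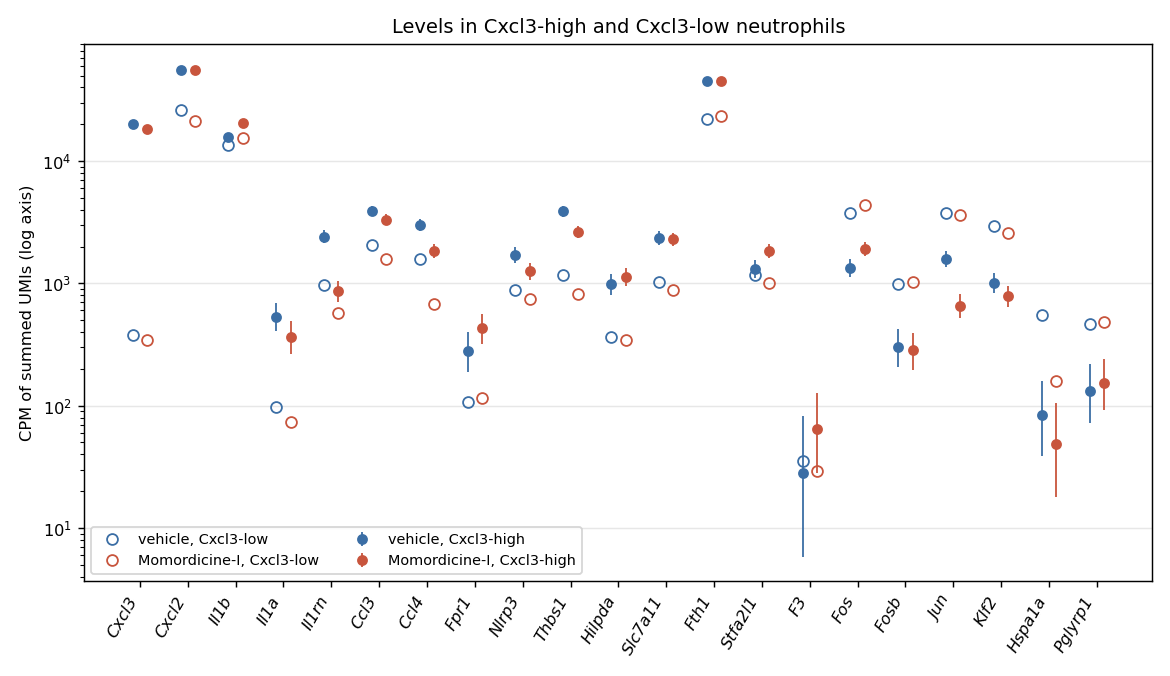
CPM of summed UMIs on a log axis for 21 genes in Cxcl3-high (filled, bars are exact 95% counting intervals) and Cxcl3-low neutrophils (open), blue for vehicle and red for Momordicine-I. Cxcl3, Cxcl2, Il1a, Fpr1, Thbs1 and Hilpda lie higher in the filled symbols of both colours, and Fos, Fosb, Jun and Klf2 lie lower.

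Interleukin-1 genes divided. Il1a, the cell-associated interleukin-1 alpha, was at 535 CPM (405 to 694) in vehicle and 365 CPM (266 to 488) in Momordicine-I Cxcl3-high cells, against 98.2 and 73.1 CPM in Cxcl3-low cells. The ratios were 5.45 (3.77 to 7.86) and 4.99 (3.42 to 7.18). Its UMIs came from 10 of 30 and 7 of 31 cells, and 1 cell gave 35.1% and 35.6% of them, so most gated cells had none detected. Without that cell in each sum the log2 ratios were 2.03 and 1.93. Il1b, secreted interleukin-1 beta, differed less, with ratios of 1.16 (1.1 to 1.22) and 1.33 (1.28 to 1.39). It had UMIs in all 61 cells, beside 96.8% and 98% of Cxcl3-low cells and 61.1% and 66% of lymphocytes. After thinning these shares were 20 of 21 and 27 of 27 Cxcl3-high cells, beside 26.3% and 28.2% of lymphocytes. Single cells held Il1b at 0.0177% to 3.43% of UMIs in vehicle (median 1.02%) and 0.31% to 4.25% in Momordicine-I (median 1.76%), ranges that overlapped those of Cxcl3-low cells. Il1rn, the receptor antagonist, had ratios of 2.49 (2.15 to 2.88) and 1.51 (1.22 to 1.85). Without its highest cell in each sum the log2 ratio in Momordicine-I was 0.03, under the call, though that step tends to lower the gated sum more. Il1r2, a decoy receptor, had ratios of 1.48 (1.34 to 1.63) and 1.68 (1.55 to 1.82). Of 12 measured genes of the interleukin-1 and inflammasome list, 3 (Il1a, Il1rn and Nlrp3) were 1.5-fold higher in both libraries and 1 (Nek7) lower. Over all measured genes, 3.92% were higher and 16.6% lower. The list's median log2 ratio was 0.05 in vehicle and 0.41 in Momordicine-I.

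Among other chemokines, Ccl3 and Ccl4, which attract monocytes and T cells, were higher. Ccl3 was at 3898 and 3321 CPM, against 2042 and 1595, with 1 cell giving 31.3% and 33.2% of its UMIs. Ccl4 had ratios of 1.89 (1.66 to 2.14) and 2.69 (2.32 to 3.12). Of 5 measured genes of the CC chemokine list, 3 were higher in both libraries (Ccl3, Ccl4 and Ccl9, the last on 8 and 7 UMIs) and 0 lower. Among all measured genes, 3.92% were higher and 16.6% lower. The median log2 ratios over all measured list members were 0.92 and 0.59. Of 12 measured chemoattractant receptors, Fpr1 alone was higher in both libraries. Cxcr2, the receptor of the Cxcl3 protein, was at 883 and 1158 CPM, against 985 and 1409.9 in Cxcl3-low cells. Cxcr4, which retains neutrophils in bone marrow, had ratios of 0.776 (0.613 to 0.971) and 0.38 (0.286 to 0.495).

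Some NF-kB component and feedback genes passed 1.5-fold in both libraries, and most did not. Nfkbia, the inhibitor that NF-kB induces to end its own activity, had ratios of 1.17 (1.07 to 1.29) in vehicle and 0.908 (0.826 to 0.996) in Momordicine-I. Traf1, a signalling adaptor, was at 479 and 389 CPM against 161 and 254. Of 17 measured genes of the list, 3 (Nfkbib, Nfkbie and Traf1) were higher in both libraries and 0 lower, beside 3.92% and 16.6% of all measured genes, with median log2 ratios of 0.23 and 0.17. Tnf, a classic target, had 15 and 12 UMIs and ratios of 0.723 (0.394 to 1.23) and 0.651 (0.331 to 1.16).

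Thbs1, the matrix glycoprotein thrombospondin-1, was at 3869 and 2617 CPM, against 1179 and 819.6 in Cxcl3-low cells, ratios 3.28 (2.91 to 3.7) and 3.19 (2.81 to 3.62). It had UMIs in 15 of 30 and 23 of 31 cells, beside 41.1% and 34.6% of Cxcl3-low cells and 23.9% and 17.6% of lymphocytes. After thinning, the shares were 47.6% and 63%, beside 29.7% and 29.4% of Cxcl3-low cells and 6.97% and 8.05% of lymphocytes. Plaur, the urokinase receptor that localises plasmin formation, had ratios of 1.8 (1.58 to 2.04) and 1.75 (1.51 to 2.02). Spp1, osteopontin, had ratios of 5.56 (3.92 to 7.86) and 2.32 (1.71 to 3.1), but 1 cell gave 64.1% and 61.4% of its UMIs. Without the exclusions the Spp1 log2 ratio in Momordicine-I was -0.01. Of 7 measured coagulation and fibrinolysis genes, 2 (Plaur and Thbs1) were higher in both libraries and 1 (F5) lower. For all measured genes these shares were 3.92% and 16.6%.

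Metabolic genes were among the higher ones. Hilpda, which protects lipid droplets from lipolysis, was at 986 and 1126 CPM, against 363 and 346. Slc7a11, the cystine importer that feeds glutathione synthesis, was at 2348 and 2284 CPM, against 1019 and 884. Fth1, the ferritin heavy chain that stores iron, had ratios of 2.02 (1.96 to 2.09) and 1.94 (1.88 to 1.99), while Ftl1, the light chain, had ratios of 0.847 (0.769 to 0.931) and 0.767 (0.696 to 0.843). Single cells held Fth1 at 0.253% to 11.7% of UMIs in vehicle and 0.384% to 12.3% in Momordicine-I. The heavy chain was thus higher and the light chain was not, though both genes have near-identical copies among which reads could be split, so these values are uncertain. Of 16 measured genes of the NRF2, metallothionein and iron list, 3 were higher in both libraries (Fth1, Gclm and Slc7a11) and 3 lower (Mt1, Slc40a1 and Txn1). Over all measured genes, the background of this and the next 2 lists, 3.92% were higher and 16.6% lower. Glycolysis had 6 of 17 measured genes higher in both libraries (Aldoa, Eno1, Gapdh, Hk2, Pgk1 and Pkm) and 0 lower, with median log2 ratios of 0.63 and 0.65. Gapdh had ratios of 1.82 (1.51 to 2.17) and 1.58 (1.36 to 1.83), and Eno1 of 2.29 (1.63 to 3.18) and 1.93 (1.44 to 2.55). Hk2 was capped in both gates by the rule and its count adds nothing. In the hypoxia list, 3 of 16 genes were higher in both libraries (Egln3 and Hk2, both capped by the rule, and Pfkfb3) and 2 lower (Mxi1 and Ndrg1).

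**Figure D2:**
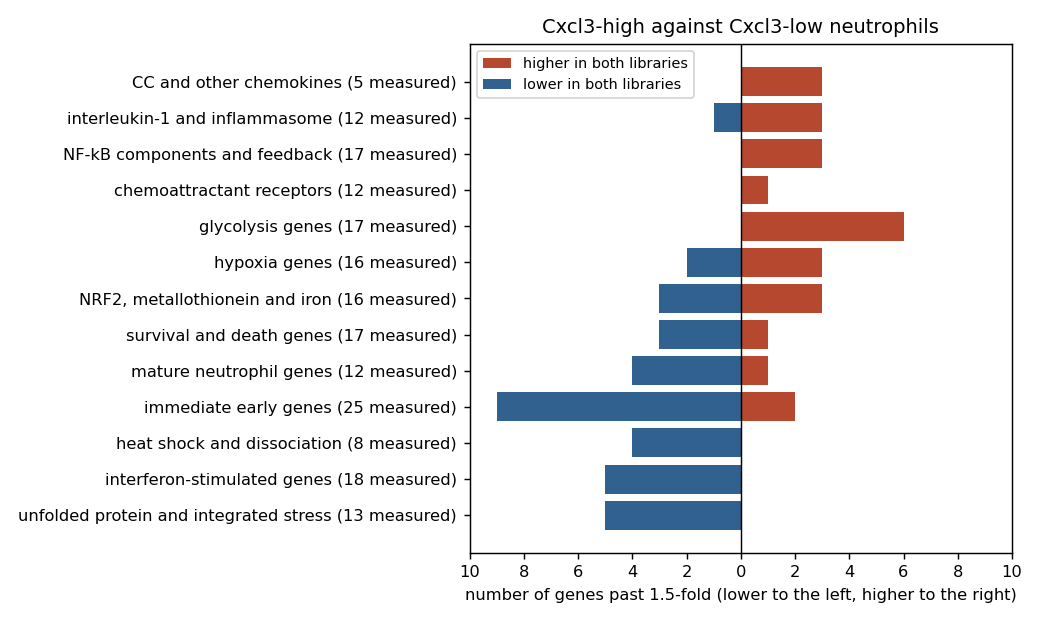
Number of measured genes of each list at least 1.5-fold higher (right) or lower (left) in Cxcl3-high than in Cxcl3-low neutrophils in both libraries; the count measured stands beside each name. Glycolysis has 6 higher and 0 lower, and immediate early genes 2 higher and 9 lower. Over all measured genes, 3.92% were higher and 16.6% lower in both libraries.

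Immediate early genes included several of the abundant lower transcripts. Of 25 measured, 9 were lower in both libraries (Atf3, Dusp2, Fos, Fosb, Jun, Klf2, Klf4, Rgs1 and Zfp36) and 2 higher (Dusp5 and Egr3), beside 16.6% lower and 3.92% higher over all measured genes, with median log2 ratios of -0.36 and -0.66. Fos, an AP-1 subunit, was at 1343 and 1919.9 CPM in Cxcl3-high cells, against 3793 and 4399.8. Fosb, its relative, was at 301 and 284 CPM, against 989 and 1023. Klf2, a transcription factor that restrains myeloid activation, was at 1014 and 786 CPM, against 2951 and 2562. Each of these lay below the Cxcl3-low level in both libraries. Zfp36, which speeds decay of cytokine and chemokine transcripts, had ratios of 0.525 (0.465 to 0.592) and 0.412 (0.36 to 0.469). Jun had ratios of 0.423 (0.36 to 0.495) and 0.181 (0.143 to 0.225). Egr3, an early growth response factor, went the other way, on 12 and 9 UMIs, with ratios of 4.66 (2.03 to 10.4) and 3.64 (1.5 to 8.02).

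Heat shock genes, which tissue dissociation can induce along with immediate early genes, were also lower in part. Hspa1a was at 84.5 and 48.6 CPM, against 556 and 159. Its near-identical copy Hspa1b was at 159.7 and 32.4 CPM, against 585 and 181, and reads shared by the pair make the split uncertain. Of 8 measured genes of the heat shock list, 4 were lower in both libraries and 0 higher, beside 16.6% and 3.92% of all measured genes. The list's median log2 ratios were -1.03 and -0.75. The part of tissue handling in the differences between Cxcl3-high and Cxcl3-low cells was not tested. Unfolded protein and integrated stress genes had 5 of 13 lower in both libraries and 0 higher. Interferon-stimulated genes, of which the rule limits Ifit1, Ifit3 and Rsad2, had 5 of 18 lower and 0 higher. The same shares of all measured genes apply to both lists.

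Some genes of mature circulating neutrophils were lower. Pglyrp1, a granule protein that binds bacterial cell walls, was at 131 and 154 CPM, against 468 and 483. Of 12 measured mature neutrophil genes, 4 were lower in both libraries (Anxa1, Lyz2, Padi4 and Retnlg, the last a gene of the rule) and 1 higher (Cd177), a small list beside the 16.6% of all measured genes that were lower in both. Cd177, a surface glycoprotein of neutrophils, had 13 and 15 UMIs and ratios of 3.06 (1.46 to 6.11) and 2.68 (1.41 to 4.78). The remaining named lower genes held few UMIs. Metrnl, which encodes a secreted factor, had 2 and 3 UMIs, with ratios of 0.102 (0.0122 to 0.374) and 0.188 (0.0384 to 0.559). Cpd, carboxypeptidase D, had 2 and 3, with ratios of 0.178 (0.0212 to 0.668) and 0.147 (0.0301 to 0.435). Acox3, Mia2, Rbm38, Rgs3 and Slfn5 had 1 to 5 UMIs per library, and Nap1l1 had 1 and 0. Basp1, a membrane-associated protein, was higher on more UMIs (250 and 167), with ratios of 3.14 (2.69 to 3.66) and 2.32 (1.95 to 2.75). Rhoh, a GTPase of blood cells, had ratios of 2.31 (1.53 to 3.4) and 2.47 (1.69 to 3.53). Creb5, Pts and Fcgr2b, also named as higher, had 10 to 23 UMIs per library.

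Cxcl2 was graded over Cxcl3 among neutrophils passing the exclusions, Fpr1 was so on few UMIs, and several other genes were not. In bands of 0 to 0.25%, 0.25 to 0.5%, 0.5 to 1%, 1 to 2% and 2 to 4% Cxcl3 (185, 24, 38, 20 and 9 vehicle cells and 356, 50, 38, 21 and 10 Momordicine-I cells), Cxcl2 stood at 26064, 33204, 42341, 52705 and 62147 CPM in vehicle. In Momordicine-I it stood at 21430.4, 28884, 41444, 52585 and 63620.1 CPM. Cxcl2 was thus higher in each successive band of both libraries. Il1a was at 98.2, 136, 212, 205 and 1264 CPM in vehicle and 73.1, 162, 115, 243 and 649.7 CPM in Momordicine-I, with its largest step into the top band. In vehicle the top band held 43 Il1a UMIs, a large part of them in 1 cell, and the band before it held 14. Fpr1 was also higher in each successive band, from 107 to 353 CPM in vehicle and from 115 to 487 CPM in Momordicine-I. In vehicle, the bands from 0.5 to 1% upward held only 36, 18 and 12 Fpr1 UMIs. Their intervals overlapped (173 to 342, 156 to 416 and 182 to 616 CPM), so their order is not settled. Klf2 went the other way in vehicle, where it was at 2951, 1928, 1617, 1271 and 617 CPM, and stood at 2562, 1156, 1352, 751 and 866 CPM in Momordicine-I. Stfa2l1, at 1162, 1611, 1302, 1271 and 1439.8 CPM in vehicle, and Nlrp3, at 743, 1087, 1292, 1364 and 1002 CPM in Momordicine-I, had no steady order. Thbs1 was at 1179, 998, 1172, 4338 and 3349.8 CPM in vehicle, with its step at the 1% limit, and at 819.6, 2725, 2469, 2763 and 2274 CPM in Momordicine-I. The single vehicle cell above 4% Cxcl3 held 43882 CPM of Cxcl2, under the band before it. The top bands hold 9 and 10 cells.

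**Figure D3:**
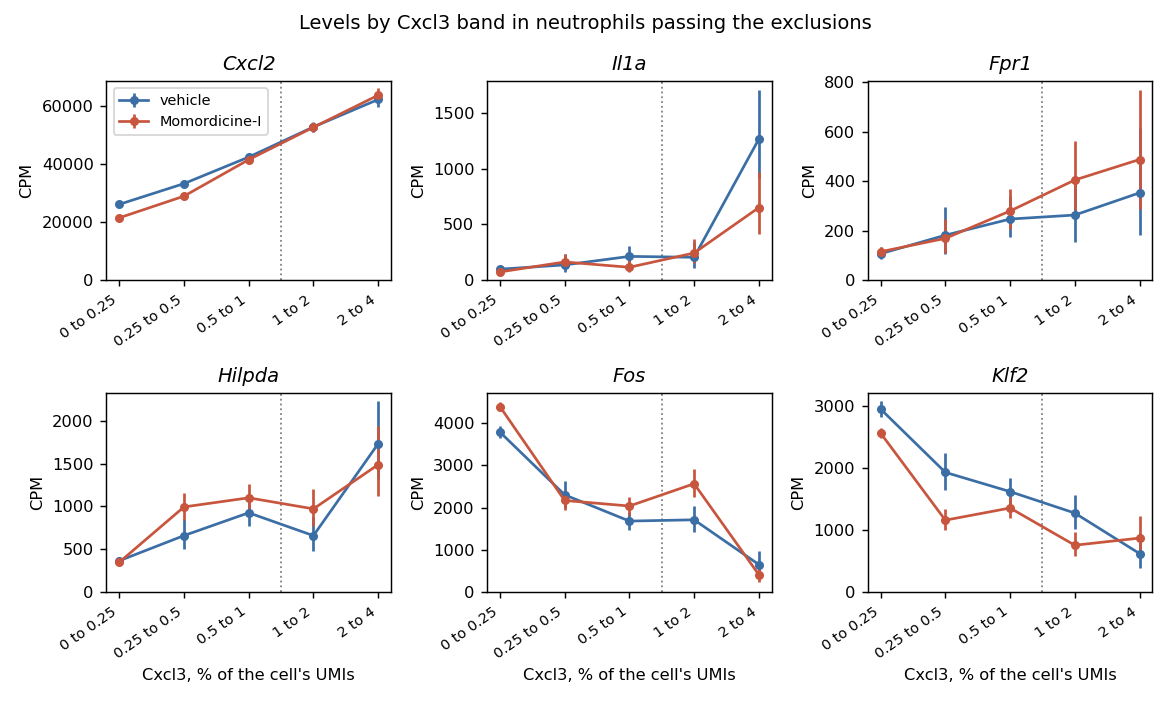
CPM of 6 genes by Cxcl3 band of the cell in neutrophils passing the exclusions, vehicle in blue and Momordicine-I in red, with exact 95% counting intervals; the dotted line marks the 1% limit of the rule. Cxcl2 is higher in each successive band, while Klf2 and Fos are lower at 2 to 4% than at 0 to 0.25%.

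Just inside the limit of the rule, at 1 to 1.25% Cxcl3, 8 vehicle and 8 Momordicine-I cells held 59974 and 51234 CPM of Cxcl2. Just outside, at 0.75 to 1%, 12 and 14 cells held 40755 and 47281 CPM. Fpr1 stood at 379 and 577 CPM inside and 171 and 186 CPM outside. Il1a stood at 463 and 64.1 CPM inside and 214 and 31 CPM outside. These sums rest on few UMIs: the whole vehicle band of 1 to 2% held 14 of Il1a and 18 of Fpr1. No intervals are given for them, so a step of Il1a or Fpr1 at the limit is not settled. Nlrp3 stood at 1472 CPM inside and 1239 outside in vehicle, but at 801 inside and 1381 outside in Momordicine-I.

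Most neutrophils with Cxcl3 of 1% or more were removed by the exclusions, 310 of 340 in vehicle and 263 of 294 in Momordicine-I. The 4 hypoxia genes alone would remove 295 and 235 of them. Exclusions set as UMI numbers keep shallow cells more easily: the removed cells had median depths of 6576.5 and 5250 UMIs. A comparison with these removed cells was added after the data were seen. Cxcl2 stood at 52319 and 55639 CPM in them and Fth1 at 44438 and 44692 CPM, near the levels of the gated cells. Gated over removed ratios of Cxcl2 were 1.06 (1.03 to 1.09) and 1.0 (0.98 to 1.03). Gapdh, not used by the rule, was at 2487 and 2756 CPM in the removed cells, above the 1465 and 1644 CPM of the gated ones. Hilpda likewise was at 2014 and 1889 CPM in the removed cells. Slc7a11 was lower there, at 1582.5 and 1661 CPM. After thinning, Nlrp3 was found in 76.2% and 77.8% of gated cells and 82.2% and 81.3% of removed cells. Il1a was found in 28.6% and 22.2% against 28.9% and 26.5%, and Thbs1 in 47.6% and 63% against 67.1% and 56.4%. Fpr1 was found in 38.1% and 40.7% against 32.2% and 24.9%. Detection of these genes was thus not particular to the gated cells.

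The Cxcl3-high share was compared between the libraries by several denominators. Of all cells it was 0.892% (0.602 to 1.27%) in vehicle and 0.709% (0.482 to 1.01%) in Momordicine-I, a ratio of 0.795 (0.466 to 1.36). Of all neutrophils it was 1.81% (1.23 to 2.58%) and 1.32% (0.899 to 1.87%), ratio 0.729 (0.427 to 1.25). Neutrophils passing the exclusions were 16.7% (15 to 18.6%) of vehicle and 20.2% (18.6 to 21.9%) of Momordicine-I neutrophils. Of these, the Cxcl3-high share was 10.8% (7.43 to 15.1%) and 6.53% (4.48 to 9.14%), ratio 0.603 (0.353 to 1.03). Each of these intervals includes 1, so a difference was not detectable with 61 cells. With no exclusions, neutrophils at or above 1% Cxcl3 made up 20.5% (18.6 to 22.6%) of vehicle and 12.5% (11.2 to 13.9%) of Momordicine-I neutrophils, ratio 0.61 (0.52 to 0.715). When the whole rule was applied to cells thinned to 2000 UMIs, 117 vehicle and 106 Momordicine-I cells met it, and the ratio of their shares of all such cells was 0.709 (0.540 to 0.930). With 1 library per group, the drug and the particular tumours pooled cannot be told apart.

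**Figure D4:**
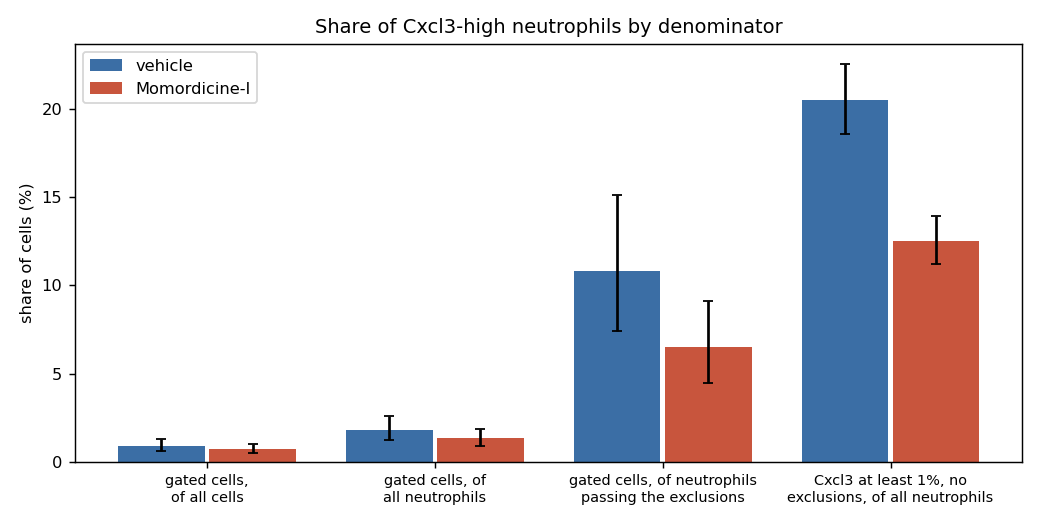
Share of Cxcl3-high neutrophils in percent by denominator, blue for vehicle and red for Momordicine-I, bars from 0 with exact 95% binomial intervals. The intervals of the libraries overlap for the first 3 denominators, and for Cxcl3 of 1% or more without exclusions vehicle lies at 20.5% and Momordicine-I at 12.5%.

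Within the Cxcl3-high cells, a comparison that asks how the drug arm differed from vehicle, the libraries were compared over 1413 genes, of which 221 were at least 1.5-fold higher with Momordicine-I, or 15.6%, and 284 at least 1.5-fold lower, or 20.1%. The interval lay above 1 for 126 genes and below 1 for 155, and the median gene was at a log2 ratio of -0.02. Cxcl2, which the rule did not use, had a Momordicine-I over vehicle ratio of 1.01 (0.974 to 1.04). Cxcl3 had a ratio of 0.905 (0.853 to 0.961), but cells of both libraries were selected on it, so its closeness was largely set by the rule. Il1b was at 15656 CPM in vehicle and 20535.5 CPM in Momordicine-I, ratio 1.31 (1.23 to 1.4), while Il1a had a ratio of 0.681 (0.45 to 1.02). Il1rn was lower with Momordicine-I, at 867 against 2404 CPM, ratio 0.361 (0.285 to 0.453). Fpr1 had a ratio of 1.52 (0.956 to 2.47), and a log2 ratio of -0.29 without the exclusions and -0.74 in thinned cells. Ccl4 had a ratio of 0.61 (0.512 to 0.725), but a log2 ratio of 0.06 without the exclusions.

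Genes of the Bcl2a1 family were lower in the Momordicine-I cells. These anti-apoptotic BCL-2 relatives, which NF-kB induces, are near-identical copies whose reads may be split, so single values are uncertain. Bcl2a1b was at 1108 CPM in vehicle (118 UMIs in 17 cells) and 211 CPM in Momordicine-I (26 UMIs in 14 cells), ratio 0.19 (0.119 to 0.293). Bcl2a1a and Bcl2a1d had ratios of 0.159 (0.0783 to 0.297) and 0.18 (0.0536 to 0.48). All 3 copies stood lower with Momordicine-I. Of 11 measured survival and death genes, 5 were lower (these 3, Cflar, which blocks caspase-8, and Fas, a death receptor) and 1 higher (Casp8), median log2 ratio -0.42. Among all genes measured, 20.1% were lower and 15.6% higher. The 3 copies may share reads, so they do not count as 3 separate genes of the list. Without the exclusions, the Bcl2a1b log2 ratio was -0.13 in place of -2.40.

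Other lower genes were Phlda1, a pleckstrin homology protein of stress signalling, with 84 and 17 UMIs and a ratio of 0.175 (0.0971 to 0.296), and Txnip, which inhibits thioredoxin and glucose uptake, ratio 0.16 (0.0652 to 0.345). One vehicle cell gave 56% of Phlda1. Jun had a ratio of 0.416 (0.315 to 0.545), with 43.5% of its vehicle UMIs in 1 cell. Jak2, a kinase of cytokine receptors, had a ratio of 0.39 (0.24 to 0.618). Clec4n, the lectin receptor Dectin-2, had 0.372 (0.215 to 0.625), and the splicing regulator Mbnl2 0.338 (0.184 to 0.593). Brd2, a reader of acetylated histones, had 0.372 (0.215 to 0.625), with 58.8% of its vehicle UMIs in 1 cell. Cd274, which encodes PD-L1, was at 695 CPM in vehicle and 316 CPM in Momordicine-I, ratio 0.455 (0.30 to 0.679). Interferon-stimulated genes had 3 of 7 measured lower (Ifi27l2a, Isg15 and Slfn4) and 0 higher, median log2 ratio -0.44. Among all genes measured between the libraries, 20.1% were lower and 15.6% higher. Isg15, a ubiquitin-like modifier, was at 347 and 113 CPM, in 6 vehicle and 7 Momordicine-I cells. Slfn4 was at 789 and 340.2 CPM, ratio 0.431 (0.29 to 0.632).

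Higher with Momordicine-I were Slc16a3, Slc2a3, S100a8 and some stefin genes. Slc16a3, the lactate exporter MCT4, was at 770.1 CPM in vehicle (21 of 30 cells) and 1839 CPM in Momordicine-I (30 of 31 cells), ratio 2.39 (1.85 to 3.11). Slc2a3, the glucose transporter GLUT3, had 10 and 43 UMIs, ratio 3.71 (1.84 to 8.28). These were 2 of the 3 glycolysis genes higher, of 15 measured, with 0 lower, a share near the 15.6% of all genes. Glycolytic enzymes differed by less than 1.5-fold, at ratios of 1.12 (0.907 to 1.39) for Gapdh and 1.02 (0.79 to 1.32) for Pkm, and the list's median log2 ratio was 0.04. S100a8, a calgranulin used in the rule's neutrophil share, was at 18323 and 30021.5 CPM, ratio 1.64 (1.55 to 1.73), while S100a9, its partner and also a gene of the rule, had a ratio of 1.4 (1.33 to 1.46). The per-cell share of the rule's neutrophil genes had a median of 4.77% in vehicle and 8.32% in Momordicine-I.

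Stfa1, a stefin A gene, gave 1 UMI in vehicle and 108 in Momordicine-I, a ratio of 93.2 (16.4 to 3713), with 88.9% of the latter in 1 of 4 cells. Csta2 gave 1 and 58 UMIs, ratio 50.03 (8.63 to 2009.6), 41.4% in 1 cell. Cstdc4 was spread more widely, at 2573 CPM in 16 cells and 4528 CPM in 21 cells, ratio 1.76 (1.52 to 2.04). These genes are near-identical copies on chromosome 16, among which reads may be split, so their single values are uncertain. Asprv1, an aspartic protease, had a ratio of 5.51 (3.34 to 9.63) on 18 and 115 UMIs. Rgcc, a cell cycle regulator that complement induces, was at 488 and 1077 CPM, ratio 2.21 (1.59 to 3.1). Tgfbi, a matrix protein, had 2.38 (1.58 to 3.66), the haptoglobin gene Hp 2.29 (1.51 to 3.56), and Rasa2, a RAS GTPase-activating protein, 2.99 (1.66 to 5.72). Spty2d1 had 2.95 (1.52 to 6.16). Osm, oncostatin M, was at 498 and 1037 CPM, ratio 2.08 (1.5 to 2.93). Ptgs2, the inducible prostaglandin synthase COX-2, was at 2423 and 4148 CPM, ratio 1.71 (1.47 to 2.0), with 31.1% of the Momordicine-I UMIs in 1 cell.

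Most of the named differences between the libraries fell short of 1.5-fold without the exclusions. Of the 12 genes named as higher with Momordicine-I, 3 stayed past 1.5-fold in that direction without the exclusions and 4 when the rule was applied to cells thinned to 2000 UMIs. Of the 12 named as lower, 3 and 8 did. For the 12 named as higher than Cxcl3-low cells in both libraries, 9 and 11 did. S100a8, for example, had a log2 ratio of 0.02 between libraries without the exclusions, Slc2a3 0.04 and Jak2 -0.18. Slfn4 held -1.0 without the exclusions and -1.02 in thinned cells, and Asprv1 0.67 and 0.66. The part of depth and of the exclusions in these differences was not tested. In Cxcl3-low neutrophils the Momordicine-I over vehicle ratio was 0.677 (0.554 to 0.829) for Bcl2a1b, 0.594 (0.535 to 0.66) for Il1rn, 0.935 (0.843 to 1.04) for Slc16a3, 0.476 (0.414 to 0.547) for Slfn4 and 0.866 (0.852 to 0.88) for S100a8. Whether the libraries differed more in Cxcl3-high than in Cxcl3-low cells was not tested.

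**Figure D5:**
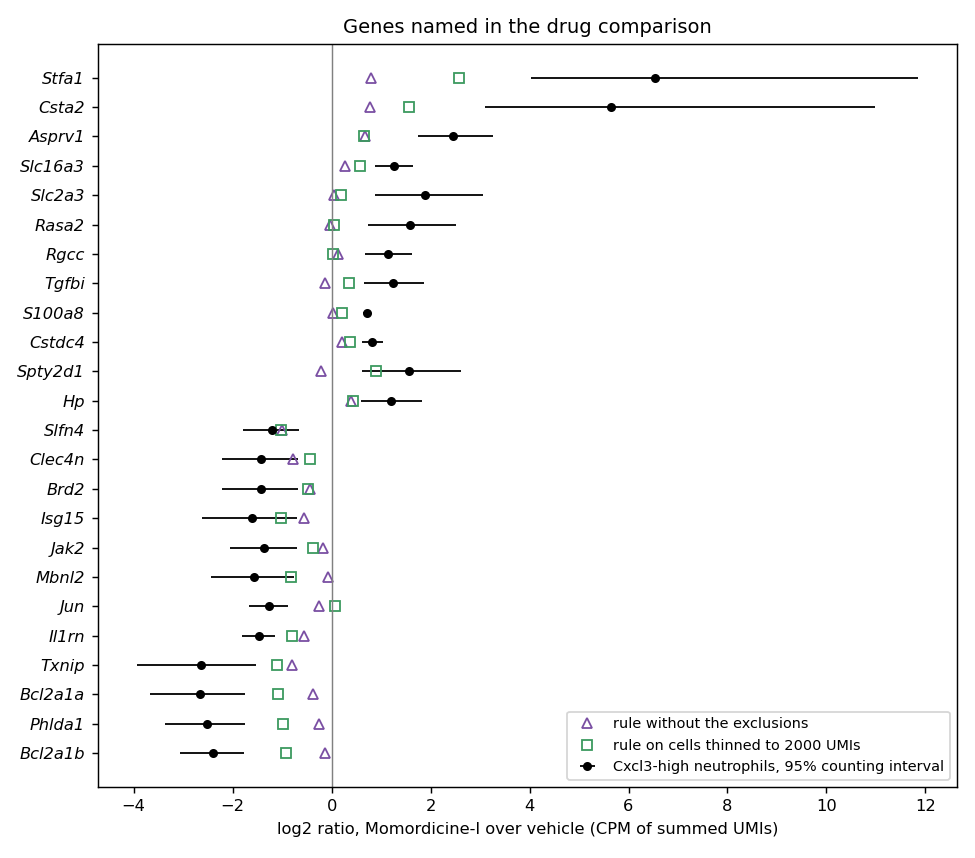
Log2 ratio of Momordicine-I over vehicle for the 24 genes named in that comparison: black points with exact 95% counting intervals for the 61 gated cells, triangles for the rule without its exclusions, squares for the rule on cells thinned to 2000 UMIs. Most triangles and squares lie nearer to 0 than the points.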

How the data were processed

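Raw UMI counts per gene and barcode were deposited by the authors for each library. Per the labels' protocols libraries were made with the 10x Genomics 3' v3.1 kit, and per the submitters' processing notes Cell Ranger 6.0.2 and mm10 were used. The deposited counts held 3642 vehicle and 4693 Momordicine-I barcodes (33998491 and 41804810 UMIs, medians 5502.5 and 4845). Barcodes under 200 genes (25 and 26) or over 10% mitochondrial UMIs (274 and 322) were removed. No doublet caller was run. A proxy for doublets was an alternative. The libraries share 10 barcodes, none of a Cxcl3-high cell.

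Raw UMIs were summed per library and gate, 106477 vehicle and 123445 Momordicine-I UMIs in Cxcl3-high cells, and given as CPM. CPM intervals are exact Poisson, share intervals Clopper-Pearson and ratio intervals conditional binomial. Genes were called at 1.5-fold with at least 20 UMIs over the 2 sums. These calls used the counts as they were, so a gene at 0 in 1 sum passed 1.5-fold with no floor. A floor of 3 counts served a second version of the list medians and shares of 0. No test fits 1 library per group.

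Named genes were, with at least 50 UMIs and 50 CPM in a sum, the 12 higher and 12 lower in both libraries against Cxcl3-low cells by the ratio nearer 1, the 12 and 12 between libraries by the interval farthest from 1, the 10 most abundant, and up to 6 members of each list described. Others were named after their values were seen. Cxcl3-high cells and the 34 lists (520 of 522 entries matched) were chosen with earlier results of these data known. Positions are from GENCODE M21. Python 3.11.15, numpy 2.4.6, scipy 1.17.1 and pandas 2.3.3 were used, and the interval code was tested on simulated data.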

Additional observations from a re-analysis of the deposited data

Results flagged for a closer look

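Icam1, Ifrd1 and Slc2a3 went in opposite directions in the 2 libraries when Cxcl3-high were set against Cxcl3-low neutrophils. Icam1, an adhesion molecule that NF-kB induces, had a ratio of 0.378 in vehicle and 1.57 in Momordicine-I, a gap of -2.05 on the log2 scale (vehicle minus Momordicine-I). Ifrd1, a transcriptional coregulator, had ratios of 0.585 and 1.67, a gap of -1.51. Slc2a3, the glucose transporter GLUT3, had ratios of 0.340 and 1.93, a gap of -2.51. These genes were flagged because the libraries differed, the ratios are given without counting intervals, and the gaps were not tested, since each group is 1 library. Icam1 and Ifrd1 were not recomputed under the processing alternatives. Slc2a3 changed direction in Momordicine-I under several settings given with the processing alternatives.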

How the results depend on the processing

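No paired analysis was possible because each group is 1 library, and no replicate could be left out. Values were recomputed under each alternative, with those for cells under 1000 UMIs, other denominators and the removed cells chosen after seeing the data. The share ratio of Cxcl3-high cells (0.795) lay between 0.666 and 1.28 over settings of the rule, and its interval lay below 1 without the exclusions and in thinned cells. Over all settings, 2075 values of named genes lay within the counting interval of the reported ratio, 520 lay outside it, and 29 values of ratios past 1.5-fold on at least 20 UMIs had the other sign.

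Counts of genes moved with the cells or UMIs allowed. Higher with Momordicine-I were 350 with Cxcl3 at 0.5%, 105 at 2%, 682 without exclusions, 1137 with no low-count filter and 30 at 100 UMIs, against 221. Lower were 475, 130, 570, 1425 and 34, and 177 at a neutrophil share of 5%, against 284. Higher than Cxcl3-low were 90 at a neutrophil share of 5%, 47 without each gene's highest cell, 371 with no filter and 56 at 100 UMIs, against 140. Lower were 338 at Cxcl3 of 0.5%, 2655 without exclusions, 1092 without the highest cell and 124 at 100 UMIs, against 591. Leaving out the highest cell tends to lower the gated sums, which hold fewer cells, more than the Cxcl3-low sums. Fewer or more genes were measured under these settings, and the cause was not tested further.

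Log2 ratios between libraries with the other sign were, without exclusions, Fpr1 -0.29, Rasa2 -0.035, Tgfbi -0.14, Spty2d1 -0.21 and Ccl4 0.061. In thinned cells they were Fpr1 -0.74, Basp1 0.076, Jun 0.065 and Ccl4 0.061, at a neutrophil share of 5% Jun 1.13 and Brd2 0.10, at Cxcl3 of 2% Fcgr2b 0.042, and without doublet-like cells Hspa1b 0.51. Against Cxcl3-low cells in Momordicine-I, they were Cxcl1 1.5 at Cxcl3 of 0.5%, Rasa2 -0.27 at 2%, and Slc2a3 -0.58 and Il1rn -0.63 at a neutrophil share of 5%. Without exclusions they were Cxcl1 1.54, Spp1 -0.0078, Fcgr2b -0.0059, Slc2a3 -0.29 and Mbnl2 0.051, in thinned cells Cxcl1 2.28, Acox3 0.0061 and Slc2a3 -0.51, and without doublet-like cells Spp1 -0.19. In vehicle, Creb5 was -0.082 at a neutrophil share of 5%, Spty2d1 0.19 without exclusions and Cxcl1 -0.69 without its highest cell. F3 over Cxcl3-low cells in vehicle, at -0.34 on 3 UMIs, had the other sign in 6 of 14 settings. The cause was not tested. Genes under 20 UMIs over the 2 sums could not be compared at this depth.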
